A study of Homo sapiens with 12 samples.

Results

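Cells hold several families of ATP-dependent chromatin remodelers besides SWI/SNF, and the expression of 42 genes of these families was followed in LNCaP cells depleted of BRG1, the SWI/SNF ATPase encoded by SMARCA4. The 42 genes were taken by symbol from the 63568 genes of the table, with no measured value in the rule, and comprise 11 ISWI genes, 8 CHD genes, 9 further genes of the NuRD complex, 8 genes of the INO80 family and 6 remodelers that work as single proteins. LNCaP is an androgen-responsive human prostate cancer cell line, and all libraries come from this 1 line. Control cells received si-NT, a pool of non-targeting siRNAs, and BRG1 depleted cells received 1 of 2 siRNAs against SMARCA4, numbered 2 and 3 in the table. RNA was collected 72 h after transfection, or at 144 h after the cells had been divided at 72 h and transfected again. There were 2 libraries for each siRNA at each time point, 12 in all, giving 2 si-NT and 4 BRG1 depleted libraries at each time. The labels do not say that the 2 libraries came from separate cultures, so p-values measure the spread between these libraries, which may be technical. Expression is in TPM (a level scaled for transcript length and for library size).

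ISWI remodelers slide nucleosomes into even spacing, and their ATPase, SMARCA5 or SMARCA1, works with partner proteins that direct it. CHD proteins carry chromodomains that read histone tails, and CHD3 and CHD4 are the ATPases of NuRD, which joins nucleosome remodeling to histone deacetylation and is best known for gene repression. The INO80 family exchanges histone H2A.Z and needs the ring-shaped AAA+ ATPases RUVBL1 and RUVBL2. Among the single proteins, HELLS is required for DNA methylation of repeats, HLTF and SMARCAL1 remodel stalled replication forks, SMARCAD1 restores silent chromatin after replication, ATRX deposits histone H3.3, and TTF2 releases RNA polymerase II from DNA.

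SMARCA4 itself was between 73.4 and 107 TPM with si-NT and between 11.4 and 21.7 TPM in the BRG1 depleted libraries, without overlap. Its log2 fold change was -2.07 at 72 h and -2.66 at 144 h (limma, adjusted p = 0.000538 and 1.01e-05). The prostate luminal marker KLK3, which encodes PSA, was expressed at a mean of 516 TPM over the 12 libraries. Of 7 markers of basal, stromal and immune cells, CD3E was at 0 in every library, KRT5, TP63 and PTPRC were at most 0.13 TPM, and COL1A1 alone passed 1 TPM, at 3.1 to 9.11 TPM. One si-NT library stood apart. The summed level of 20 proliferation genes was 1051 TPM in si-NT 72 h replicate 2, against 1835, 1859 and 2125 TPM in the other si-NT libraries. That sum was 1099 to 1532 TPM in the BRG1 depleted libraries at 72 h and 1012 to 1392 TPM at 144 h.

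Most of the 42 genes were well expressed. In total 40 reached 1 TPM in at least 2 libraries and were tested. SMARCA1, the second ISWI ATPase, lay between 0.2 and 0.44 TPM and CECR2, a partner of ISWI in the CERF complex, between 0.14 and 0.75 TPM, and neither was tested. The level in TPM was highest for RBBP4, a histone-binding subunit that NuRD shares with other complexes, with a mean of 227 TPM over the 12 libraries. RUVBL1 followed at 146 TPM, RBBP7 at 109 TPM, the NuRD scaffold MTA2 at 104 TPM, the methyl-CpG-binding family member MBD3 at 99.6 TPM and CHD3 at 90.4 TPM. Libraries ranged from 100.2 to 123 TPM for RBBP7, 92 to 122 TPM for MTA2, 84.1 to 117 TPM for MBD3 and 61.4 to 121 TPM for CHD3, so these neighbours in the order were not separated by more than their spread. At the low end stood ATRX at a mean of 3.33 TPM and BAZ2B, a bromodomain protein, at 3.09 TPM.

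**Figure D1:**
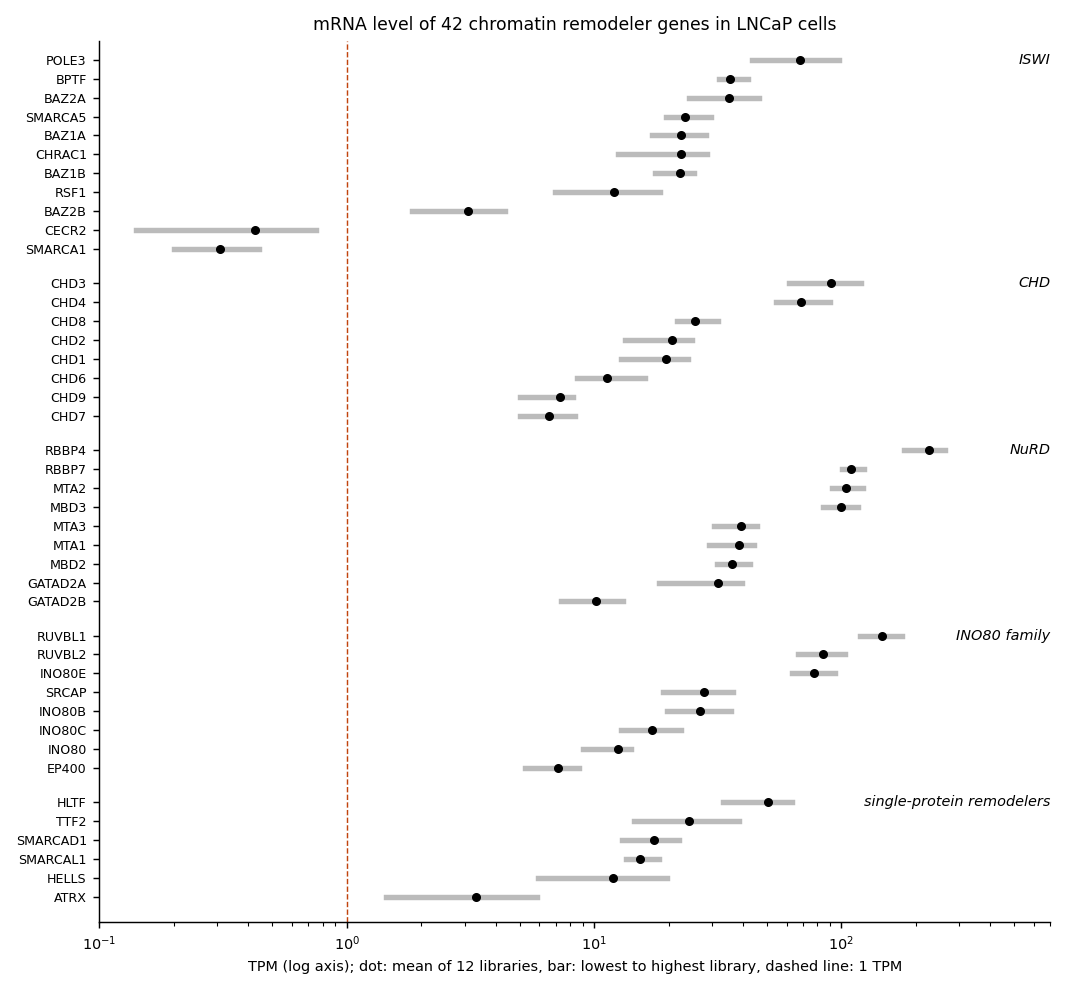
TPM of the 42 genes on a log axis, grouped by family and ordered by mean within each. Dots are means of the 12 libraries, bars run from the lowest to the highest library, and the dashed line marks 1 TPM. SMARCA1 and CECR2 lie wholly below the line, and RBBP4 is highest at 227 TPM.

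The first comparison asked whether the other remodelers had changed 72 h after BRG1 depletion. At 72 h, 0 of the 40 genes had an adjusted p under 0.05 (limma), where 1.68% of all 16337 tested genes did. An unadjusted p under 0.05 was reached by 5 of the 40, and 14.3% of all genes. The log2 fold changes lay between -0.35 and 0.44 with a median of 0.03, and the median of all genes was 0.06. The lowest adjusted p was that of MTA3, a NuRD scaffold subunit, at 36.7 and 30.6 TPM with si-NT and 43.8, 45.6, 42.5 and 43.8 TPM in the BRG1 depleted ones. Its log2 fold change of 0.38 ± 0.09 did not pass the test (SE, adjusted p = 0.0796). The positive end was held by CHD2 at 0.44 and CHD7, the gene of CHARGE syndrome, at 0.41, neither of which passed (limma, adjusted p = 0.218 and 0.179).

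At 144 h falls outnumbered rises among the called genes. Of the 40 genes, 10 were down-regulated (25%), where 10.8% of all tested genes were, and 1 was up-regulated (2.5%), where 13.6% of all genes were. Together 11 genes (27.5%) passed, close to the 24.4% of all genes that passed in either direction. Negative fold changes were seen for 29 of the 40, and for 47.3% of all genes. The median log2 fold change was -0.20, and that of all genes was 0.03. An unadjusted p under 0.05 was reached by 17 of the 40, and by 36.8% of all genes. By family, 3 of 9 tested ISWI genes fell (median -0.20), 1 of 8 CHD genes fell and 1 rose (median 0.03), 1 of 9 NuRD genes fell (median -0.18), 2 of 8 INO80 family genes fell (median -0.20) and 3 of 6 single-protein remodelers fell (median -0.42). As a share of tested genes, the falls were 33.3% for ISWI, 25% for the INO80 family and 50% for the single-protein remodelers. They were 12.5% for CHD and 11.1% for NuRD, near the 10.8% of all genes, and each family share rests on few genes. All calls at 144 h rest on 2 si-NT libraries. Leaving out si-NT 144 h replicate 2 left 0 of the 40 called, and leaving out si-NT 144 h replicate 1 left 4 (HELLS, TTF2, RUVBL2 and CHD3), while the share of all genes called went to 7.05% and 10.8%. Spike-in (ERCC) scaling moved the median of all genes to -0.31 and left 3 called (HELLS, TTF2 and POLE3). Of all genes 4.6% were then called, with 3.76% lower. The spike-in share itself differed between the 2 si-NT libraries at 144 h, at 0.805% and 1.34%, and was 1.04% to 1.97% in the depleted ones. In bulk RNA a lower level cannot show whether fewer cells made the mRNA or each cell made less.

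**Figure D2:**
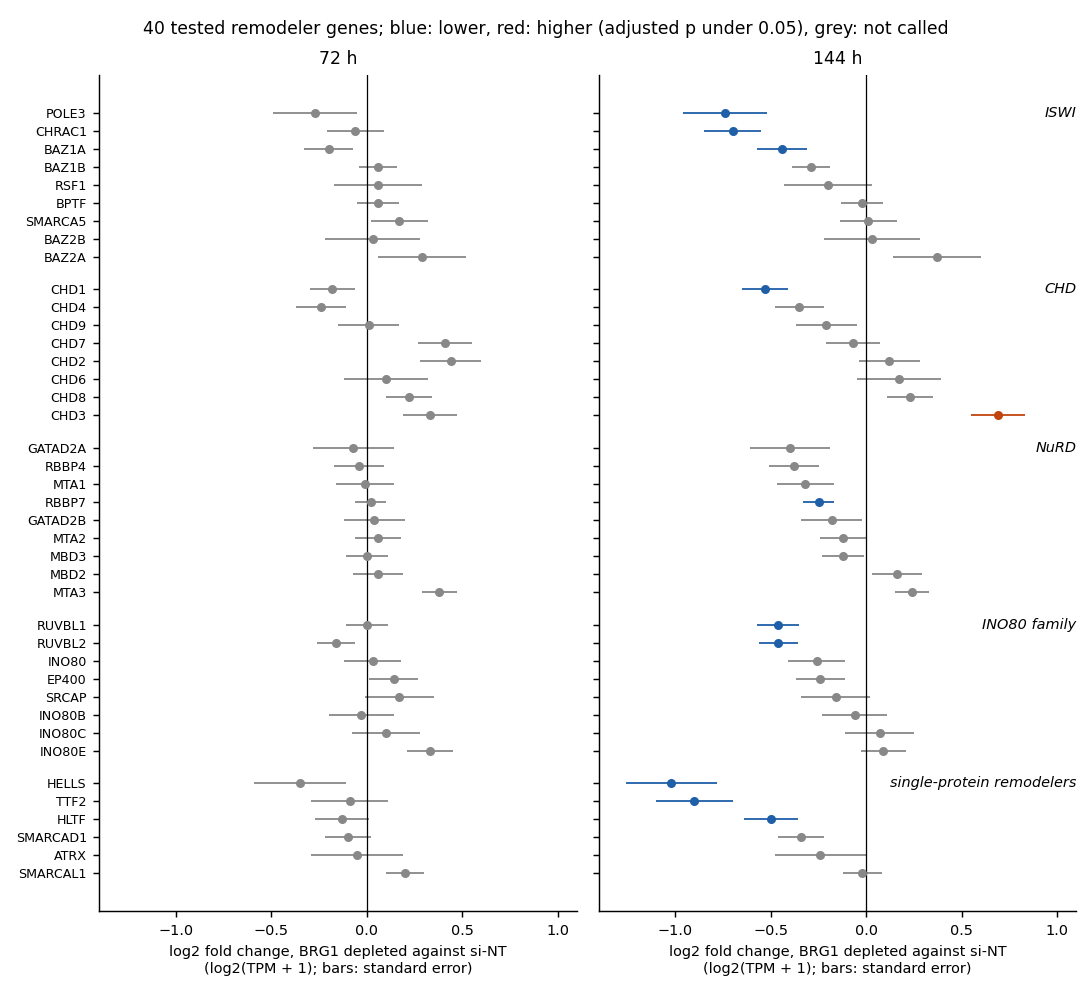
Log2 fold change of BRG1 depleted against si-NT libraries for the 40 tested genes at 72 h (left) and 144 h (right), on the log2(TPM + 1) scale, grouped by family. Bars are standard errors, and blue and red mark an adjusted p under 0.05. Every point at 72 h is grey, and at 144 h 10 genes are blue and CHD3 is red.

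The falls of HELLS and TTF2 were the widest. HELLS (ENSG00000119969.10, chr10:96305086-96373662, GRCh37, plus strand) stood at 15.5 and 19.7 TPM in the si-NT libraries at 144 h and at 7.21, 10.6, 9.35 and 5.94 TPM in the BRG1 depleted libraries. All 4 depleted libraries were below both controls, with a log2 fold change of -1.02 ± 0.24 (SE, adjusted p = 0.0115, limma). At 72 h HELLS was 18.3 and 11.3 TPM with si-NT and 11.8, 8.26, 12.2 and 12.7 TPM after depletion, so that the lower control fell within the depleted range. TTF2 (ENSG00000116830.7, chr1:117602948-117650075, plus strand) was 29.7 and 38.6 TPM with si-NT at 144 h and 14.5, 22.4, 20.5 and 14.8 TPM after depletion. Its log2 fold change was -0.90 ± 0.20 (SE, adjusted p = 0.00915, limma), and at 72 h it was -0.09. In si-NT 72 h replicate 2, TTF2 was 20.9 TPM, within the depleted range of 144 h.

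HLTF, a translocase and ubiquitin ligase acting on PCNA, was the best expressed single-protein remodeler, at 63.1 and 55.1 TPM with si-NT at 144 h and at 46, 41.6, 45.9 and 33.4 TPM after depletion. The groups did not overlap, and the log2 fold change was -0.50 ± 0.14 (SE, adjusted p = 0.0212, limma). At 72 h HLTF ranged from 47.1 to 58 TPM after depletion around a lower control of 54.7 TPM. HLTF (chr3:148747914-148804341, minus strand) shares 27.4% of its exon bases with GYG1 on the other strand, which was at 23.1 to 49.2 TPM, and the strand setting of the counting is not given in the sources used here. GYG1 had a log2 fold change of -0.48 at 144 h (adjusted p = 0.361, limma). The other single-protein remodelers did not pass. SMARCAD1 had -0.34 (adjusted p = 0.0609), ATRX -0.24 and SMARCAL1 -0.02.

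Promoter sequence was examined, after the calls were known, for 3 motifs that are well known from genes of the cell cycle. They are the E2F motif (TTTGGCGC, TTTCCCGC, TTTGCCGC or TTTCGCGC), the CCAAT box bound by NF-Y (CCAAT), and the cell cycle homology region or CHR (TTTGAA or TTCGAA). Each was sought on both strands in the 250 bases before the RefSeq start, in the windows of 36 of the 42 genes. RefSeq gives these windows on GRCh38.p14, and the printed ones were placed on GRCh37 by exact match. The E2F motif was in 3.4% of 27305 genes with a window, the CCAAT box in 37% and the CHR in 17.2%. Among the genes described here the E2F motif was found in HELLS and HLTF and in 0 of the other 34 with a window. Of the 8 down-regulated genes with a window, 7 held a CCAAT box (all but POLE3) and 3 a CHR (POLE3, RUVBL2 and HLTF), and of the other 28, 9 held a CCAAT box and 2 a CHR. Genes can have several windows, which gives more room for a match, and a match is only a match of letters. Whether the motifs bear on the falls was not tested. The stretches below, 5′ to 3′ on the gene's strand, carry the matches in capitals, and the CHD3 window, with none of the 3 motifs, is shown beside them because CHD3 alone was up-regulated. For HELLS only the surroundings of the E2F motifs are given, since the whole window is exonic in an alternative transcript. HLTF is given up to the first exonic base, and the TTF2 and CHD3 windows hold no exonic base. The CHD3 window precedes an internal RefSeq start and begins 3743 bases inside the gene as annotated, so it says nothing of the sequence before the first start.
HELLS, chr10:96305458-96305487, plus strand: aaccgcaagctGCGCCAAAtctcgcgcagc
HELLS, chr10:96305515-96305544, plus strand: aggtatcgcgagatgacaggatTTTCCCGC
HLTF, chr3:148804342-148804570, minus strand: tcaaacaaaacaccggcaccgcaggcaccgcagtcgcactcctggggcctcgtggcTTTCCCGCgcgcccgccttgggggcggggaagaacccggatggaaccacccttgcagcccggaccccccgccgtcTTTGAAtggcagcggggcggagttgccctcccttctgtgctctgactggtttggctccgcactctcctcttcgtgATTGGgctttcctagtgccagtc
TTF2, chr1:117602698-117602947, plus strand: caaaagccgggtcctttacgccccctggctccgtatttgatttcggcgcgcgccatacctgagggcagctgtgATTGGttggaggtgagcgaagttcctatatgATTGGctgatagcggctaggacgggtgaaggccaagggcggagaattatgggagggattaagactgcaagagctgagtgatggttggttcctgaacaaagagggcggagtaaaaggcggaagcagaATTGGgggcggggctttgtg
CHD3, chr17:7791857-7792106, plus strand: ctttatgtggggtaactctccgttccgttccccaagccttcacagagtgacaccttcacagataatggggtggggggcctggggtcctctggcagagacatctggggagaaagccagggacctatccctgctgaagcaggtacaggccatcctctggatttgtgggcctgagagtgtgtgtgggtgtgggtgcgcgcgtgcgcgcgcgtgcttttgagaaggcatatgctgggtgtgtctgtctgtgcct
The HELLS E2F motifs end 69 bases and 1 base before the start, the HLTF motif ends 187 bases before it, and TTF2 holds the CCAAT box 3 times, each as the reverse complement ATTGG.

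In the ISWI family the 3 called genes were all subunits of CHRAC, the chromatin accessibility complex. CHRAC1 and POLE3 form its histone-fold pair, POLE3 also belongs to DNA polymerase epsilon, and BAZ1A (ACF1) is the large subunit that contacts the ATPase. CHRAC1 (ENSG00000104472.5) was 28 and 26.7 TPM with si-NT at 144 h and 17.9, 19.1, 17.2 and 12.6 TPM after depletion, clear of the controls of both time points. Its log2 fold change was -0.70 ± 0.15 (SE, adjusted p = 0.00642, limma). POLE3 (ENSG00000148229.8) was 88.1 and 97.5 TPM with si-NT and 43.7, 50, 70.6 and 59.7 TPM after depletion at 144 h. The 2 libraries of the siRNA numbered 2 were the lowest, and the log2 fold change was -0.74 ± 0.22 (SE, adjusted p = 0.0302, limma). The call of POLE3 was lost in 4 of the 12 fits with 1 library left out and without the filter on low genes. BAZ1A (ENSG00000198604.6) was 28.3 and 26.8 TPM with si-NT and 22.7, 23.5, 17.2 and 17.8 TPM after depletion. Here the siRNA numbered 3 gave the lower pair, and the log2 fold change was -0.44 ± 0.13 (SE, adjusted p = 0.0352, limma). Its call was lost in 4 of the 12 as well, without the filter, and with the 6 libraries of 144 h alone.

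The ATPase of these complexes did not follow. SMARCA5 was 21.2 and 25.4 TPM with si-NT at 144 h and 29.6, 23.6, 21.8 and 19.5 TPM after depletion. The groups overlapped on both sides, and the log2 fold change of 0.01 had a 95% interval from -0.31 to 0.32. At 72 h SMARCA5 was 21.5 and 21.1 TPM with si-NT and 22.8, 26.3, 22.7 and 24.8 TPM after depletion (log2 fold change 0.17, adjusted p = 0.656, limma). BAZ1B (WSTF), the partner in the WICH complex, had -0.29 at 144 h (adjusted p = 0.0535, limma). The remaining tested partners had log2 fold changes of -0.20 for RSF1, -0.02 for BPTF of the NURF complex, 0.03 for BAZ2B and 0.37 for BAZ2A, which directs SMARCA5 to ribosomal DNA in NoRC. None of these passed.

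CHD1 and CHD3 moved in opposite directions. CHD1, which binds histone H3 methylated at lysine 4 and is often deleted in prostate tumours, was 22.6 and 22.1 TPM with si-NT at 144 h and 17, 17.4, 14.1 and 12.9 TPM after depletion. All 4 were below every si-NT library of either time point, and the log2 fold change was -0.53 ± 0.12 (SE, adjusted p = 0.0108, limma). At 72 h CHD1 was 22.6 and 23.9 TPM with si-NT and 22.4, 19.7, 18.9 and 20.9 TPM after depletion, a log2 fold change of -0.18 (adjusted p = 0.569, limma).

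CHD3 (ENSG00000170004.12, chr17:7788114-7816078, plus strand) was the 1 up-regulated gene. At 144 h it was 70.9 and 61.4 TPM with si-NT and 107, 115, 101 and 107 TPM after depletion. The means were 66.1 ± 6.73 TPM (SD, n = 2) and 107 ± 5.87 TPM (SD, n = 4). The rise was 62.4%, at a log2 fold change of 0.69 ± 0.14 (SE, adjusted p = 0.0053, limma). At 72 h CHD3 was 68.7 and 78.5 TPM with si-NT and 84.4, 121, 87.5 and 83.6 TPM after depletion. The 4 depleted libraries were above both controls already then, at a log2 fold change of 0.33 ± 0.14 that did not pass (SE, adjusted p = 0.299, limma). With spike-in scaling the change at 144 h was 0.29 (adjusted p = 0.587), or 0.61 above the median of all genes. NAA38 lies across from CHD3 on the other strand at 213 to 330 TPM, shares 0 exon bases with it and had a log2 fold change of 0.06 at 144 h.

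CHD4, the other NuRD ATPase, was 77.8 and 90 TPM with si-NT at 144 h and 66.5, 70.9, 54.7 and 71.9 TPM after depletion. Its log2 fold change of -0.35 ± 0.13 did not pass (SE, adjusted p = 0.0806, limma). The TPM ratio of CHD3 to CHD4 was 0.911 and 0.682 with si-NT at 144 h and 1.6, 1.62, 1.84 and 1.49 after depletion. At 72 h it was 0.9 and 1.14 with si-NT and 1.41, 1.68, 1.61 and 1.39 after depletion. CHD4 mRNA was the higher of the pair in 3 of the 4 si-NT libraries, and CHD3 mRNA was the higher in all 8 BRG1 depleted libraries. This ratio was computed within each library and so does not depend on how the libraries are scaled. It was not tested. The other CHD genes at 144 h had log2 fold changes from -0.21 for CHD9 to 0.23 for CHD8, with CHD7 at -0.07, CHD2 at 0.12 and CHD6 at 0.17, and none passed.

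**Figure D3:**
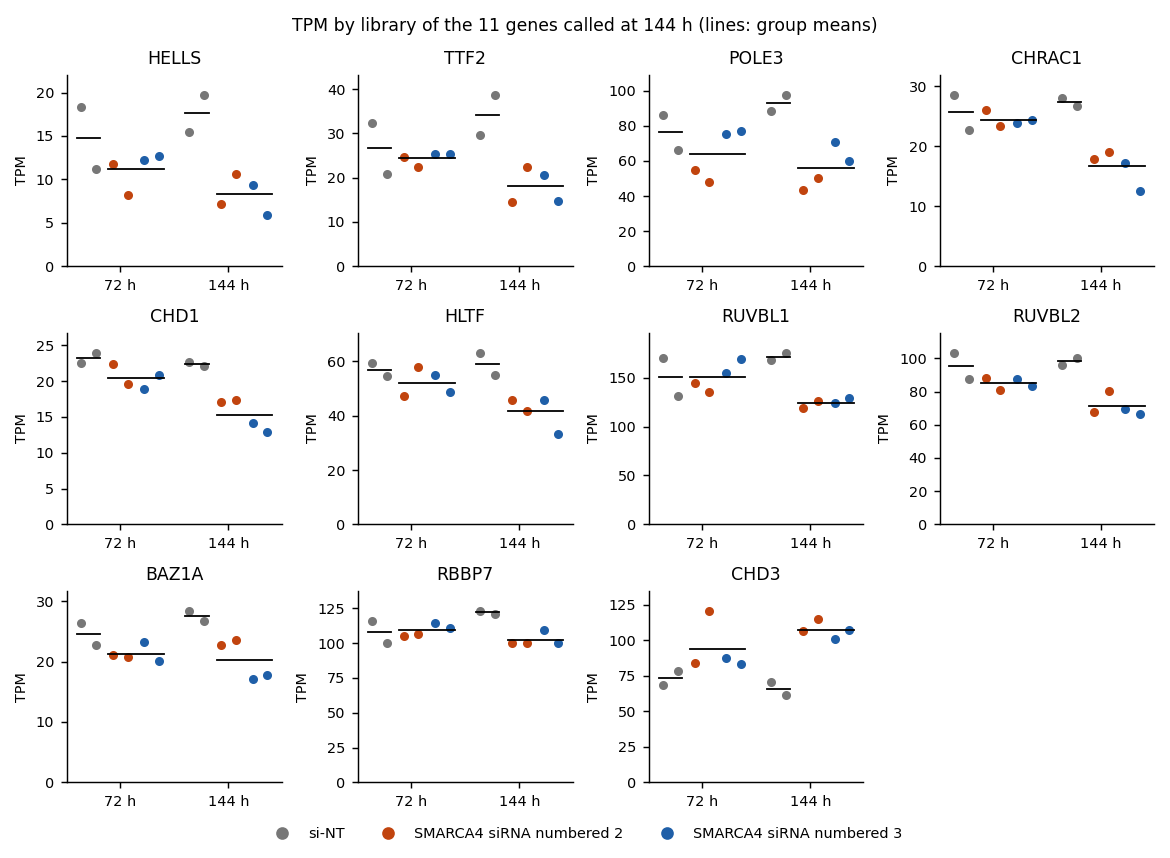
TPM in each of the 12 libraries for the 11 genes called at 144 h, with 72 h to the left and 144 h to the right in each panel, si-NT in grey, the siRNA numbered 2 in red and the siRNA numbered 3 in blue. Lines are group means. At 144 h the grey points lie above all coloured points except for CHD3, where 61.4 and 70.9 TPM lie below 101 to 115 TPM.

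Of the 9 NuRD genes grouped here, which leave out the ATPases and the deacetylases, RBBP7 alone was called. RBBP7, the close relative of RBBP4, was 123 and 121 TPM with si-NT at 144 h and 100.2, 100.2, 110 and 100.3 TPM after depletion. The log2 fold change was -0.25 ± 0.08 (SE, adjusted p = 0.0445, limma), the smallest among the called genes. The call was lost in 8 of the 12 fits that left out 1 library, without the trend on expression, with the si-NT libraries of both times combined and with the 6 libraries of 144 h alone. At 72 h RBBP7 was 116 and 100.5 TPM with si-NT, and the lower of these lay within the depleted range of 144 h, 100.2 to 110 TPM. RBBP4 had -0.38 (adjusted p = 0.051), GATAD2A -0.40 (adjusted p = 0.191) and MTA1 -0.32 (adjusted p = 0.133), and none passed (limma). GATAD2B had -0.18, MTA2 and MBD3 -0.12 each, MBD2 0.16 and MTA3 0.24.

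RUVBL1 and RUVBL2, which form 1 ring together, both fell at 144 h. RUVBL1 (ENSG00000175792.7) was 168 and 175 TPM with si-NT at 144 h and 119, 126, 124 and 129.6 TPM after depletion. The means were 172 ± 4.96 TPM (SD, n = 2) and 125 ± 4.65 TPM (SD, n = 4), a change of -0.46 ± 0.11 on the log2 scale (SE, adjusted p = 0.0136, limma). RUVBL2 (ENSG00000183207.8) was 96.3 and 100.3 TPM with si-NT and 67.8, 80.7, 69.5 and 66.6 TPM after depletion, also -0.46 ± 0.10 (SE, adjusted p = 0.00614, limma). The ratio of RUVBL1 to RUVBL2 was 1.74 in both si-NT libraries at 144 h and 1.57 to 1.95 after depletion. At 72 h RUVBL1 had a log2 fold change of 0.00 and RUVBL2 of -0.16. RUVBL1 shares 8.89% of its exon bases with SEC61A1 on the other strand, which was at 176 to 229 TPM with a log2 fold change of 0.19 (adjusted p = 0.233, limma).

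The Swi2/Snf2-type ATPases of the INO80 family were not called. SRCAP, which loads H2A.Z, was the best expressed of them at 29.5 and 27.8 TPM with si-NT at 144 h and 28.1, 30.8, 25.7 and 19.1 TPM after depletion, with overlapping groups. Its log2 fold change was -0.16 (adjusted p = 0.562, limma). INO80 had -0.26 and EP400, the ATPase of the TIP60 complex, -0.24. The accessory subunits INO80B, INO80C and INO80E had -0.06, 0.07 and 0.09.

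Levels of paralogues, related genes of the same family, were set side by side as ratios of TPM, as a description. SMARCA5 exceeded SMARCA1 by 49 to 129 times, BAZ2A exceeded BAZ2B by 8.34 to 14.7 times and GATAD2A exceeded GATAD2B by 2.5 to 3.64 times over the 12 libraries. The ratio of BAZ1A to BAZ1B lay from 0.797 to 1.15. At 72 h it was 1.14 and 1.04 with si-NT and lower in all 4 depleted libraries, at 0.814 to 0.983, and at 144 h the groups overlapped. The ratio of MBD2 to MBD3, which belong to separate forms of NuRD, was 0.353 and 0.339 with si-NT at 144 h and 0.457, 0.43, 0.412 and 0.382 after depletion, while at 72 h it was 0.304 to 0.352 with si-NT and 0.293 to 0.386 after depletion. For MTA1 over MTA2, RBBP4 over RBBP7 and GATAD2A over GATAD2B the depleted libraries overlapped the controls at both times. SMARCA5 over SMARCA1, with SMARCA1 below 1 TPM, was 52.5 and 49 with si-NT at 72 h and 59.8 to 104 after depletion, and overlapped at 144 h. With 2 libraries against 4, a ratio can separate the groups by chance. No share over other gene pairs was counted.

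**Figure D4:**
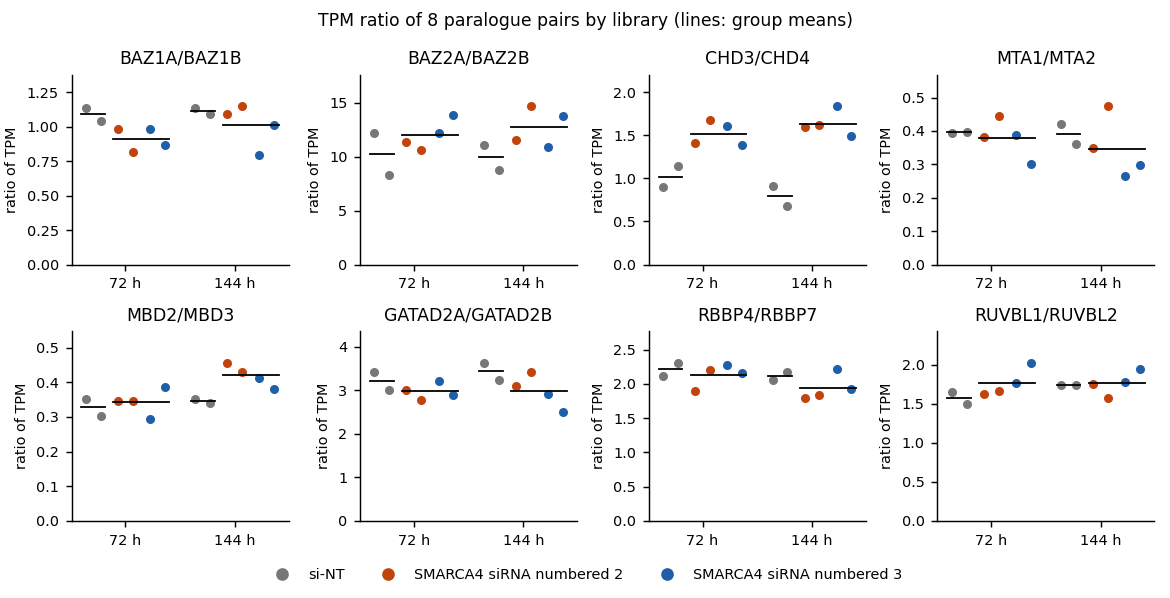
Ratio of TPM within each library for 8 paralogue pairs, laid out by time point, with si-NT in grey and the siRNAs numbered 2 and 3 in red and blue. Lines are group means. At 144 h CHD3 over CHD4 averages 0.796 with si-NT and 1.64 after depletion, and RUVBL1 over RUVBL2 lies between 1.57 and 1.95 in all 6 libraries.

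Whether the genes changed more at 144 h than at 72 h was tested as a difference of differences. The change at 144 h was the more negative for 35 of the 40 genes, with a median difference of -0.24 on the log2 scale, where 53.6% of all genes had a negative difference and their median was -0.03. No gene of the 40 passed, that is 0 had an adjusted p under 0.05 (limma), with 7 at an unadjusted p under 0.05. Among all genes 0.0184% passed and 11.9% had an unadjusted p under 0.05. The widest difference was that of TTF2, -0.81 (95% interval -1.44 to -0.18, adjusted p = 0.34, limma), then HELLS at -0.67 and CHRAC1 at -0.64. The call of 10 falls at 144 h and none at 72 h was therefore not shown to be a difference between the time points. Time in culture, with its second transfection, gave no call in control cells. There, si-NT at 144 h against si-NT at 72 h gave 0 of 40 at an adjusted p under 0.05 (limma), and 0% of all genes passed. An unadjusted p under 0.05 was reached by 0 of 40, and by 4.11% of all genes. With 2 libraries against 2, and si-NT 72 h replicate 2 apart from the others, a shift could be missed. All 20 proliferation genes were higher in si-NT at 144 h, with a median log2 fold change of 0.52, and 0 passed.

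The 2 siRNAs were compared directly with each other. None of the 40 genes differed between them at an adjusted p under 0.05 (limma). The count was 0 at 72 h, where 0.141% of all genes passed, and 3 of the 40 had an unadjusted p under 0.05, as did 8.33% of all genes. It was 0 at 144 h, where 0.331% of all genes passed, and 11 of the 40 had an unadjusted p under 0.05, as did 13.3% of all genes. At 144 h the 10 down-regulated genes had log2 fold changes from -0.97 to -0.24 with the siRNA numbered 2 and from -1.12 to -0.22 with the siRNA numbered 3, both against the same si-NT libraries. The widest gaps were those of GATAD2A, -0.11 and -0.69 (difference -0.58, 95% interval -0.99 to -0.18), and BAZ2A, 0.65 and 0.08. INO80 had -0.03 and -0.49, with the lowest adjusted p for the difference (0.149, limma).

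Genes that work with these remodelers were read in the same fit. Of 45 partner genes 44 were tested. At 72 h 1 of the 44 was called, and at 144 h 15 were, 12 lower (27.3%, against 10.8% of all genes) and 3 higher (6.82%, against 13.6%). The median log2 fold change at 144 h was -0.11. MEAF6, a subunit of TIP60 and other acetyltransferase complexes, was 68.8 and 65.8 TPM with si-NT at 144 h and 259, 260.5, 265 and 250.1 TPM after depletion. At 72 h it was 89.1 and 92.4 TPM with si-NT and 162, 182, 179 and 163 TPM after depletion. The log2 fold change was 0.91 at 72 h (adjusted p = 0.000538) and 1.93 at 144 h (adjusted p = 2.68e-07, limma). MEAF6 was the only partner whose change differed between the times (1.02, adjusted p = 0.00657, limma). Part of this difference lies in the si-NT level, which was lower at 144 h than at 72 h (log2 fold change -0.43, adjusted p = 0.974, limma). HDAC2, a deacetylase of NuRD, fell by 0.48 on the log2 scale at 144 h (adjusted p = 0.00983), while HDAC1 had 0.18 (adjusted p = 0.22, limma). With spike-in scaling 5 partner genes were called at 144 h and 0 at 72 h. Without si-NT 144 h replicates 2 or 1, or siRNA 3 144 h replicate 2, the partner genes called at 144 h were 2, 7 and 9. UCHL5 of INO80 had -0.99, YEATS4 of SRCAP and TIP60 -0.63, BRD8 of TIP60 -0.40 and MRGBP of TIP60 -0.39, and all passed. On the higher side, the NuRD subunit CDK2AP1 had 0.41 and ZNHIT1 of SRCAP 0.32 (limma, adjusted p = 0.0392 and 0.0317).

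Of 10 other SNF2 ATPases, 4 fell at 144 h and 6 did not pass, where 10.8% of all genes were lower. ERCC6L, a mitotic translocase, and RAD54L, a recombination factor, had log2 fold changes of -0.99 each (limma, adjusted p = 0.00756 and 0.00808). RAD54B had -0.70 and ZRANB3, which acts at stalled replication forks, -0.51 (limma, adjusted p = 0.0264 and 0.0428). The 6 others lay between -0.20 for CHD1L and 0.19 for RAD54L2. Of 8 histone variants and partners, 3 fell, against the same 10.8% of all genes. They were H2AZ2 at -0.35 and the zinc finger proteins CDCA7 and CDCA7L at -0.80 and -0.81 (limma, adjusted p = 0.0289, 0.0412 and 0.00265). CDCA7 is the known activator of HELLS. At 144 h CDCA7 was 15.4 and 18.8 TPM with si-NT and 8.95, 11.9, 9.93 and 7.18 TPM after depletion. In si-NT 72 h replicate 2 it was 8.4 TPM, within that depleted range. With each siRNA taken alone it did not pass at 144 h (limma, adjusted p = 0.145 for the siRNA numbered 2 and 0.0585 for that numbered 3). Whether the falls of HELLS and CDCA7 are linked was not tested. H2AZ1, the main H2A.Z gene, had -0.20 (adjusted p = 0.467, limma).

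Most genes of the proliferation list were also lower at 144 h. Of the 20 on that list, 0 were called at 72 h, with 1 at an unadjusted p under 0.05 (limma). That 1 was CDK1, the best expressed of the list at a mean of 322 TPM. Its log2 fold change of 0.73 at 72 h did not pass (adjusted p = 0.28, limma), and at 144 h it was -0.08. At 72 h CDK1 was 330 and 131 TPM with si-NT and 399, 244, 378 and 389 TPM after depletion, so the groups overlapped. The lower control was si-NT 72 h replicate 2. At 144 h 18 of the 20 fell, where 10.8% of all genes did, with a median log2 fold change of -0.95. Without si-NT 144 h replicate 2 or 1 the count at 144 h was 4 and 8. Several genes of the list are named by the study from these same libraries, so its direction is not independent evidence. In si-NT 72 h replicate 2, where the summed level of the list was within the depleted range of 144 h, 9 of the 10 down-regulated remodeler genes also had their lowest si-NT level, such as RUVBL1 at 132 TPM. CHD1 had its highest si-NT level there, at 23.9 TPM. Some uncalled remodeler genes also had their lowest si-NT level in that library, such as CHD4 at 68.6 TPM and MTA3 at 30.6 TPM. Others, such as BPTF at 39.2 TPM, did not. The share over all genes was not counted, so the 9 of 10 stands without a background. The part of proliferation in the falls of the remodeler genes was not tested.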

How the data were processed

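Per the labels and the study's methods, polyadenylated RNA with ERCC spike-ins was sequenced on stranded paired-end libraries. The authors trimmed reads with Trim Galore 0.11.2, aligned them to hg19 (GRCh37) with STAR 2.4.0j and counted them with featureCounts. They deposited 1 table of TPM, whose columns sum to between 999999 and 1000001. TPM keeps no read depth, so depth is unknown and no counting error is given. Their own comparisons used edgeR on counts scaled to the spike-ins, which were not analysed here. The tool that made TPM is not given in the sources used here.

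Each si-NT column was matched to its labelled library. The columns of the siRNAs numbered 2 and 3 were matched only to the BRG1 depleted group of their time point. Of all pairs of columns, 0 held the same values. The GRCh37 lift of GENCODE 44, a later release than the authors', gave symbols and coordinates. TPM was taken to log2 after adding 1, and the 16337 genes that reached 1 TPM in 2 or more libraries were fitted with limma 3.58.1 (R 4.3.3) in 4 groups, with a trend on mean expression. P-values were adjusted over all of them by the Benjamini-Hochberg method, and genes were called at 0.05. The siRNAs were compared in 6 groups. Folds on this scale understate changes of low genes. The genes described and all lists were chosen with earlier results of these data known, the promoter motifs after the calls. Values by library are given for called genes and the best expressed ATPase of each family, plus CHD4 and MTA3. The rule named the 10 called partner genes of smallest adjusted p, and the other 5 (H2AZ2, ZNHIT1, CDK2AP1, CDCA7 and ZRANB3) and the uncalled HDAC1, H2AZ1, CHD1L and RAD54L2 were added after their values were seen. The table numbers the siRNAs 2 and 3, which the labels do not match to their own numbers, and 1 library at 72 h carries both siRNA numbers in its labels. Alternatives changed the pseudocount, scaling, filter, trend, block, controls or threshold, or left out 1 library.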

Additional observations from a re-analysis of the deposited data

Results flagged for a closer look

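In groups of 4 BRG1 depleted libraries, 1 library lay far from the other 3 for 4 of the 80 sets of values examined (40 genes at 2 time points), and chance alone gives about 1 in 20. CHD3 was 120.5 TPM in siRNA 2 72 h replicate 2, against 83.6 to 87.5 TPM in the other 3. RSF1 was 18.4 TPM in the same library, against 11.2 to 12.2 TPM. CHD8 was 31.6 TPM in siRNA 3 144 h replicate 2, against 25.3 to 25.5 TPM. RBBP7 was 109.7 TPM in siRNA 3 144 h replicate 1, against 100.2 to 100.3 TPM. None of the 40 genes differed between the siRNAs or between the time points by the test of that difference.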

How the results depend on the processing

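No gene called at 144 h changed sign under any alternative run. Against 11 remodeler genes called at 144 h, 3 were called with ERCC scaling, 5 with a log2 fold change beyond 0.58, 0 beyond 1.5 and 4 at an adjusted p under 0.01, and 0 to 12 with 1 library left out (0 and 4 without si-NT 144 h replicates 2 and 1). More were called at 144 h with median-of-ratios size factors (14, with 26.7% of all genes) and quantile normalisation (16, with 27.1%). The same held at a mean TPM of at least 5 (14, with 30.1%) and with si-NT of both time points combined (13, with 30.7%). RBBP4 and SMARCAD1 passed in each of these settings, and BAZ1B in all but the last. At 72 h the count was 0 except with si-NT of both time points combined, where it was 2 (MTA3 and CHD3, higher). Partner genes called at 144 h were 5 with ERCC scaling, 8 beyond 0.58, 1 beyond 1.5, 5 under 0.01 and 2 to 15 with 1 library left out (2 and 7 without si-NT 144 h replicates 2 and 1, and 9 without siRNA 3 144 h replicate 2), and at 72 h 0 with ERCC scaling and 0 beyond 1.5. Proliferation genes called were 0 beyond 1.5, 9 under 0.01 and 4 to 19 with 1 library left out (4 and 8 without si-NT 144 h replicates 2 and 1). Counts with a si-NT library left out rest on 1 control, assumed to vary like the other groups. Same-numbered libraries shared little deviation from their group means (correlations from -0.07 to 0.12), which cannot show whether they were prepared together. With the replicate block 10 remodeler genes were called at 144 h, without RBBP7. Of all genes 4.6% were called at 144 h with ERCC scaling. The share of all genes beyond 0.58 or 1.5, or under 0.01, was not counted, so those counts stand without a background. Why counts changed was not tested. TPM gives no depth, so the precision of low genes cannot be stated from the table.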
